A study of Mus musculus with 6 samples.

Results

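The stem cell transcription factors described here are 10 genes chosen by name among the 54532 Ensembl genes of the files. They were chosen with earlier results of these data known. All 10 were detected and passed the filter on low counts, as did 14608 genes in all. The first 7, Gata2, Tal1, Lyl1, Lmo2, Runx1, Erg and Fli1, are known together as the heptad. The other 3, Mecom, Hlf and Etv6, are stem cell factors outside the heptad. RNA came from LSK cells of mouse bone marrow, the lineage-negative, Sca-1-positive and Kit-positive gate that holds blood stem cells and early progenitors. The R274X group (3 libraries) was labelled Vav1-Cre; Phf6fl-R274X/Y and the floxed control group (3 libraries) Phf6fl-R274X/Y, so both carried the floxed R274X allele of the X-linked gene Phf6 in males, and Cre was present in the R274X group only. Vav1-Cre is active across blood lineages and in part of the endothelium, and any effect of Cre itself cannot be told apart from that of the allele. The labels used here state neither ages nor numbers of animals. Since they do not say whether each library is a different animal, a p-value here reflects library-to-library spread, part of which may be technical.

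The heptad proteins bind DNA together at many enhancers of blood stem cells, including enhancers of their own genes, and so form a densely connected circuit. Gata2 is a zinc finger protein that recognises GATA sequences. Tal1 and Lyl1 are related basic helix-loop-helix proteins that pair with E proteins, and Lmo2 binds no DNA itself but bridges them to Ldb1 and GATA factors. Runx1 works with its partner Cbfb, while Erg and Fli1 are related activators of the ETS family. Mecom, a zinc finger protein also called Evi1, and Hlf, a PAR bZIP protein, are known for high expression in long-term stem cells, and Etv6 is an ETS repressor needed by adult stem cells in the marrow. The study's title asks about self-renewal and repopulation by stem cells with the R274X mutation, and these factors are among the best known regulators of both.

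Total counts ranged from 15406314 to 16896472 in the R274X libraries and from 17200917 to 18106065 in the floxed controls. Phf6, the targeted gene, which encodes a chromatin protein, measured 1.21, 1.47 and 1.19 FPKM in R274X libraries, against 4.54, 4.20 and 4.81 FPKM in floxed controls (FPKM is fragments scaled to gene length and sequencing depth, on the authors' library scale), a 3.51-fold fall (log2 fold change -1.81, SE 0.123, edgeR adjusted p = 6.67e-06). At an edgeR adjusted p under 0.05, 7.89% of all tested genes fell and 10.1% rose. Of 8 genes of the gate and of stem cells 5 fell, 1 rose and 2 did not pass. Ly6a (Sca-1) was at 247 ± 15.6 CPM in R274X libraries and 142 ± 5.07 CPM in floxed controls (SD, n = 3 each). Kit was at 96.7 ± 14.8 CPM in R274X libraries and 158 ± 12.8 CPM in floxed controls (SD, n = 3 each). CPM is the count scaled to library size with TMM factors. Of 8 genes of lineages that the gate should remove 4 rose and none fell, of which 3 lost their call with at least 1 library left out. The other, Cd8a, a T cell co-receptor, stood at 4.75 ± 1.05 CPM in R274X libraries and 1.89 ± 0.225 CPM in floxed controls (SD, n = 3 each). Immunoglobulin genes took 6.85%, 7.95% and 4.45% of counts in R274X libraries 1 to 3, against 0.649%, 0.293% and 1.18% in floxed controls 1 to 3.

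Most of the 10 factors were lower in the R274X libraries, and none was higher at the threshold. Gata2, Tal1, Lmo2 and Runx1 of the heptad fell, as did all 3 of the added factors, Mecom, Hlf and Etv6. The falls ran from 1.16-fold for Runx1 to 2.01-fold for Gata2. Lyl1, Erg and Fli1 did not pass the threshold, an adjusted p of 0.05 in edgeR's quasi-likelihood test with Benjamini-Hochberg adjustment over all 14608 tested genes. In the same test 7.89% of all genes were lower and 10.1% higher, beside 7 of the 10 factors lower and 0 higher. The 10 factors and the gene lists below were chosen with earlier results known. Their counts beside the shares of all genes therefore describe these data and are not an independent test. The median log2 fold change was -0.53 for the 10 factors and -0.02 for all tested genes. The R274X values lay below all control values for the same 7 factors, and for 18.3% of all tested genes (37.2% were apart in either direction). In these bulk samples fewer cells of a type and less RNA per cell cannot be told apart.

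**Figure D1:**
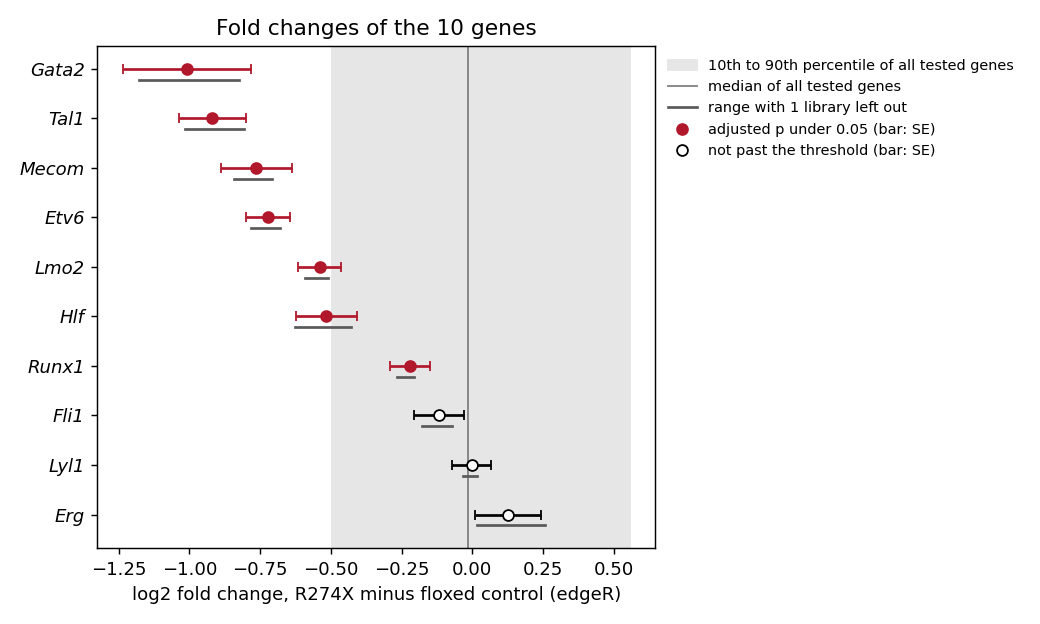
Log2 fold changes of the 10 factors, R274X minus floxed control, from edgeR, with their standard errors as bars (3 libraries each); the dark line under each point is the range when 1 library is left out, and the grey band spans the 10th to 90th percentile of all tested genes. Gata2 (-1.01), Tal1 (-0.92), Mecom (-0.76) and Etv6 (-0.72) lie well to the left of the band, and Erg (0.13) is the rightmost point.

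Gata2, the GATA factor of stem and early progenitor cells, had the largest fall and the widest spread. Its gene (ENSMUSG00000015053) lies on chromosome 6 from 88193891 to 88207032 (GRCm38). It measured 8.49, 7.44 and 10.98 FPKM in the R274X libraries, against 16.5, 22.5 and 14.8 FPKM in the floxed controls. Every R274X library was below every control, R274X library 3 was closest to the controls, and control 2 stood above the other controls. This gave a log2 fold change of -1.01 (SE 0.226, edgeR adjusted p = 0.0399). The call was lost without R274X library 1 (adjusted p = 0.163), R274X library 2 (0.0908) or floxed control 1 (0.0962) in edgeR, with log2 fold changes of -0.97, -0.89 and -1.08.

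Tal1, also called Scl, which is needed to form blood and pairs with E proteins, fell 1.89-fold. Its gene (ENSMUSG00000028717) spans 115056426 to 115071755 on chromosome 4. The R274X libraries held 8.22, 8.52 and 10.1 FPKM and the floxed controls 16.0, 19.6 and 14.8 FPKM. The groups did not overlap, and again R274X library 3 was the highest of its group and control 2 the highest of the controls. Tal1 had a log2 fold change of -0.92 (SE 0.118, edgeR adjusted p = 0.00068), and its call held whichever library was left out (adjusted p up to 0.00779). Across the 6 libraries, the profile of Tal1 was more like that of Gata2 than that of any other of the 10 (Pearson r = 0.984 over 6 libraries, which share the group difference).

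Lyl1, the closest relative of Tal1, did not pass the threshold. Lyl1 (ENSMUSG00000034041, chromosome 8, 84701457 to 84704715) measured 154, 153 and 149 FPKM in the R274X libraries, against 150, 156 and 148 FPKM in the floxed controls. The groups overlapped, with means of 152 ± 2.86 FPKM in R274X libraries and 151 ± 3.94 FPKM in floxed controls (SD, n = 3 each). Lyl1 had a log2 fold change of -0.00184 (SE 0.070, edgeR adjusted p = 0.989), and it stayed on that side of the threshold under 17 of 18 alternative settings. The exception was quantile normalization of FPKM, where it was -0.36 with a limma adjusted p of 0.0229. Within each library, which removes any scaling between libraries, the log2 ratio of Tal1 to Lyl1 was -4.23, -4.17 and -3.88 in R274X libraries and -3.23, -2.99 and -3.32 in floxed controls. The ratios did not overlap, and their means differed by -0.91 (p = 0.1 in an exact two-sided permutation test, which with 3 against 3 libraries can go no lower; 0.267 adjusted over 8 pairs). On the linear scale the mean ratio of Tal1 to Lyl1 FPKM was 0.0587 in the R274X libraries and 0.110 in the floxed controls.

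The sequences upstream of the annotated starts of Gata2, Tal1, Mecom and Lyl1 are printed here because 3 of these genes fell and Lyl1, the relative of Tal1, did not pass the test. They come from RefSeq (GRCm38.p6), which gave windows for 8 of the 10 genes and none for Lmo2 and Fli1. Each shows the 250 bases before the RefSeq start that lies furthest upstream, read 5′ to 3′ on the gene's own strand. Capitals mark matches to a GATA motif (GATAA), an E-box (CAGNTG), an ETS motif (GGAAG) or a RUNX motif (TGTGGT), on either strand. The Mecom window lies within the gene span given for Mecom below (29951296 to 30548008 on chromosome 3), not before it. Which start these cells used was not measured.
Gata2: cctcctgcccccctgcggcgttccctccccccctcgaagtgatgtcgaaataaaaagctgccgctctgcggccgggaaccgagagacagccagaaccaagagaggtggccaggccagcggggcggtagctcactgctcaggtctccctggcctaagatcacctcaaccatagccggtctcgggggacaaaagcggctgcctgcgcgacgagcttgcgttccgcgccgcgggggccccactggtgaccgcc
Tal1: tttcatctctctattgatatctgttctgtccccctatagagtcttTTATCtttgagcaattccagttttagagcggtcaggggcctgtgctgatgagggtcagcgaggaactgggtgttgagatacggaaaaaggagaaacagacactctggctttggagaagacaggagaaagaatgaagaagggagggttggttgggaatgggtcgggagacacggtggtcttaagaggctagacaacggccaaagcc
Mecom: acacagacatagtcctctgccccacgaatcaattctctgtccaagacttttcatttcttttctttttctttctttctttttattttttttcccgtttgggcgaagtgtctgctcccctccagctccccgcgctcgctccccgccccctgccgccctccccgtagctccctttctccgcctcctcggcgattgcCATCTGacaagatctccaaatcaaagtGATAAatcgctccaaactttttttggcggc
Lyl1: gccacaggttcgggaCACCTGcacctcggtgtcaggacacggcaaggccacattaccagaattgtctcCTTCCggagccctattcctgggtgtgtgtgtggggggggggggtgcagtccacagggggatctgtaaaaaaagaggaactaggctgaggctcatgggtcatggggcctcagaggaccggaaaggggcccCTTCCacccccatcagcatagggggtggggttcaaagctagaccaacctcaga
The windows are chr6:88193641-88193890, plus strand, for Gata2, chr4:115056176-115056425, plus strand, for Tal1, chr3:30509760-30510009, minus strand, for Mecom and chr8:84701207-84701456, plus strand, for Lyl1. The Gata2 window held none of these motifs, the Tal1 window 1 GATA match, the Mecom window 1 GATA match and 1 E-box, and the Lyl1 window 1 E-box and 2 ETS matches. Over all 14 windows of the 8 genes, 4 held a GATA match, 5 an E-box, 7 an ETS match and 0 a RUNX match. Among 32851 RefSeq windows of the same length, 22.6% held a GATA match, 44.8% an E-box, 64.1% an ETS match and 14.0% a RUNX match. A match is a description of the letters only.

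Lmo2, the bridging protein of the complex, was by far the most abundant of the 10 per gene length in both groups and still fell. The gene (ENSMUSG00000032698, chromosome 2, 103957986 to 103981878) had 234, 233 and 261 FPKM in R274X libraries, against 362, 348 and 342 FPKM in floxed controls. The group means were 243 ± 15.7 FPKM in R274X libraries and 351 ± 10.2 FPKM in floxed controls (SD, n = 3 each), and no library of either group lay between 261 and 342 FPKM. Lmo2 had a log2 fold change of -0.54 (SE 0.077, edgeR adjusted p = 0.000833), past the threshold with any library left out, and with quantile-normalized FPKM it was -0.96. Its profile over the 6 libraries was nearest to that of Etv6 (Pearson r = 0.997 over 6 libraries).

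Runx1, the RUNX factor that blood stem cells need to arise, fell by the smallest amount. Runx1 (ENSMUSG00000022952, chromosome 16, 92601466 to 92826149) measured 6.39, 6.62 and 6.36 FPKM in R274X libraries, against 7.15, 7.496 and 7.78 FPKM in floxed controls. The groups were tight and did not overlap, with a log2 fold change of -0.22 (SE 0.070, edgeR adjusted p = 0.0453). The call was lost with any library left out (edgeR adjusted p from 0.067 to 0.131). It was also lost with DESeq2 (adjusted p = 0.0891), edgeR with RLE scaling (0.0528) and limma-voom (0.053), and in every fit to FPKM. Cbfb, its partner, did not pass (log2 fold change 0.09), and the log2 ratio of Runx1 to Cbfb within a library was -2.98, -3.10 and -3.02 in R274X libraries and -2.76, -2.64 and -2.78 in floxed controls. Those ratios differed by -0.31 in their means and did not overlap (exact permutation test, two-sided, p = 0.1, again the lowest it can give). Of the relatives, Runx3 and Runx2 also fell, with log2 fold changes of -0.38 and -0.35, and the ratio of Runx1 to Runx3 overlapped between the groups (exact permutation p = 0.2).

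The ETS activators Erg and Fli1 did not pass. Erg (ENSMUSG00000040732, chromosome 16, 95359169 to 95586593), which is needed to maintain adult stem cells, had 39.2, 43.1 and 30.6 FPKM in R274X libraries, against 32.0, 34.7 and 36.1 FPKM in floxed controls. R274X libraries 1 and 2 were above all controls and library 3 below all of them. Erg had a log2 fold change of 0.13 (SE 0.115, edgeR adjusted p = 0.496), and without R274X library 3 it was 0.26 with an adjusted p of 0.0368. It was below 0, at -0.08, with quantile normalization of FPKM. Fli1 (ENSMUSG00000016087, chromosome 9, 32422204 to 32542861), a factor of stem cells and megakaryocytes, had 12.2, 12.7 and 14.1 FPKM in R274X libraries, against 14.6, 14.3 and 13.2 FPKM in floxed controls. Its groups overlapped, with a log2 fold change of -0.12 (SE 0.088, edgeR adjusted p = 0.385), and the sign was the same under all 18 alternatives. The within-library ratio of Erg to Fli1 also overlapped (difference of mean log2 ratios 0.23, exact permutation p = 0.4).

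Etv6, the ETS repressor, fell 1.65-fold. Etv6 (ENSMUSG00000030199, chromosome 6, 134035700 to 134270158) had 17.8, 18.5 and 20.6 FPKM in R274X libraries, against 31.8, 31.6 and 29.9 FPKM in floxed controls. No library of either group came between 20.6 and 29.9 FPKM. The log2 fold change was -0.72 (SE 0.077), and its edgeR adjusted p of 0.000144 was the smallest of the 10. The within-library log2 ratio of Etv6 to Fli1 was 0.55, 0.54 and 0.55 in R274X libraries and 1.13, 1.14 and 1.18 in floxed controls. The ratio had an SD of 0.00437 in R274X libraries and 0.0266 in floxed controls (n = 3 each). With 659, 671 and 736 Fli1 counts in the R274X libraries, counting noise alone would give a wider spread. The closeness therefore cannot be read as a trait of the pair. The mean ratios differed between groups by -0.60 (exact permutation test, two-sided, p = 0.1, again the lowest it can give, 0.267 adjusted over 8 pairs).

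Mecom was the least abundant of the 10 and fell 1.70-fold. Mecom (ENSMUSG00000027684, chromosome 3, 29951296 to 30548008) measured 0.912, 0.859 and 1.02 FPKM in R274X libraries, against 1.67, 1.42 and 1.61 FPKM in floxed controls. These values rest on 176, 162 and 189 counts in the R274X libraries and 396, 334 and 373 counts in the floxed controls, and the groups did not overlap. Mecom had a log2 fold change of -0.76 (SE 0.126, edgeR adjusted p = 0.00189). Its relative Prdm16, another zinc finger protein that stem cells need, was lower too, at 0.402 ± 0.0958 FPKM in R274X libraries and 0.931 ± 0.0899 FPKM in floxed controls (SD, n = 3 each), and their ratio overlapped between the groups (exact permutation p = 0.2).

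Hlf, the bZIP factor of long-term stem cells, fell 1.43-fold. Hlf (ENSMUSG00000003949, chromosome 11, 90336536 to 90390895) had 10.2, 11.7 and 13.0 FPKM in R274X libraries, against 14.2, 17.5 and 17.9 FPKM in floxed controls. The highest R274X value lay just under the lowest control, floxed control 1. Hlf had a log2 fold change of -0.52 (SE 0.108, edgeR adjusted p = 0.00907), and this was -0.48 with an adjusted p of 0.0558 without floxed control 2. Tef, a PAR bZIP relative of Hlf, fell as well (log2 fold change -0.34), and the ratio of Hlf to Tef overlapped (exact permutation p = 0.3). The last of the 8 pairs, Gata2 with the erythroid factor Gata1, overlapped too, with log2 ratios of 1.03, 0.95 and 1.35 in R274X libraries and 1.49, 1.12 and 1.64 in floxed controls (exact permutation p = 0.2).

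**Figure D2:**
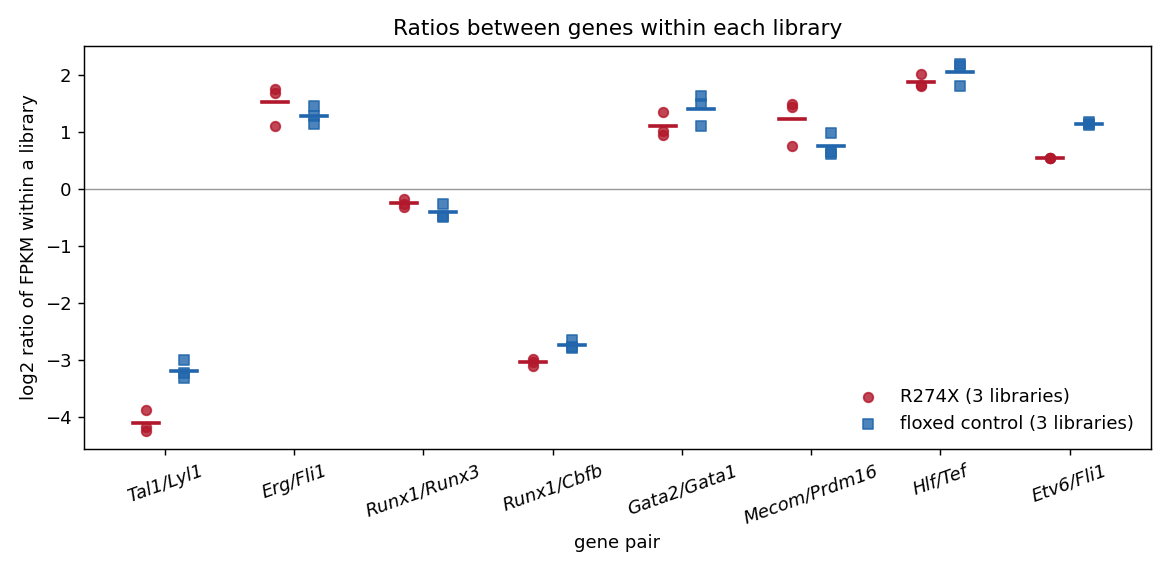
Log2 ratio of FPKM between the genes of 8 pairs within each library (vertical axis), for 3 R274X libraries and 3 floxed controls, with the mean of each group as a bar. The groups are apart for Tal1/Lyl1, Runx1/Cbfb and Etv6/Fli1, where each exact permutation p is 0.1, and overlap for the other 5 pairs.

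The order of the 10 levels per gene length was similar in both groups at its ends and changed in the middle. Lmo2, Lyl1, Erg and Etv6 were the highest in that order in both groups, and Runx1 and Mecom the lowest, each apart from its neighbour. Lmo2 and Lyl1 together held most of the summed FPKM: 48.4% and 30.3% in R274X libraries, against 54.7% and 23.6% in floxed controls. In the floxed controls Gata2, Tal1, Hlf and Fli1 followed at 17.9, 16.8, 16.5 and 14.0 FPKM, and each of these neighbours overlapped the next. In the R274X libraries the order was Fli1, Hlf, Gata2 and Tal1 at 13.0, 11.6, 8.97 and 8.95 FPKM, again with each overlapping the next. Lyl1 and Runx1 had the smallest variation between R274X libraries, with coefficients of variation of 1.88% and 2.17% of the FPKM, while those of Gata2 and Erg were 20.3% and 17.0%.

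**Figure D3:**
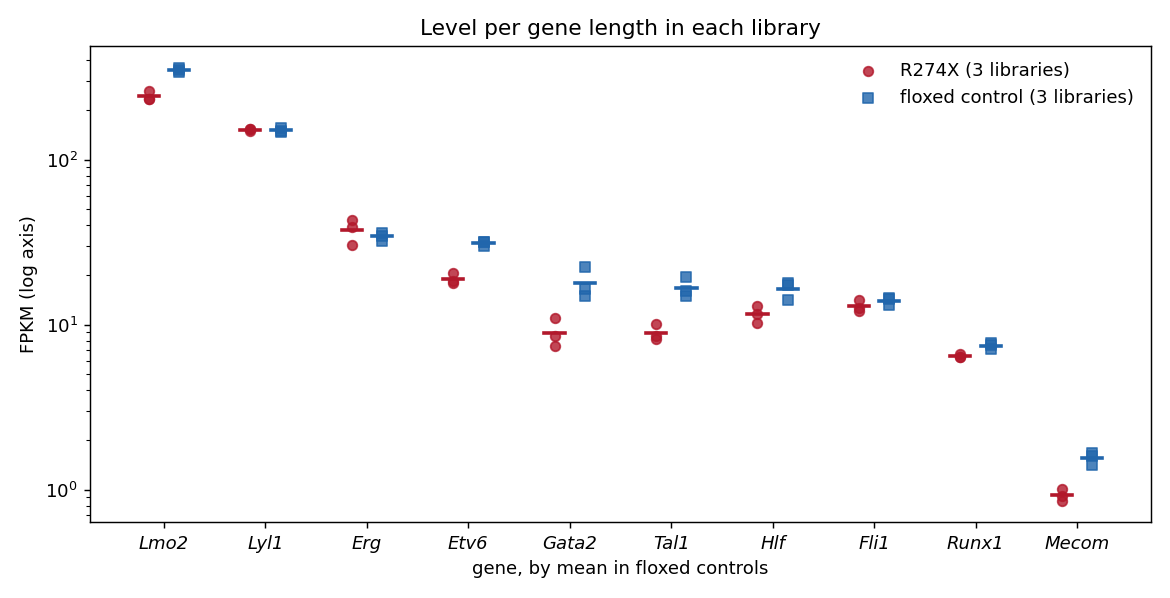
FPKM of the 10 factors in each library on a log axis, for 3 R274X libraries (circles) and 3 floxed controls (squares), with group means as bars. Levels span from 0.859 FPKM for Mecom to 362 FPKM for Lmo2, and the groups are apart for 7 genes.

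The factors that fell did so by different amounts in the individual libraries. The mean of the 10 centred log2 CPM profiles was -0.28, -0.26 and -0.15 in R274X libraries 1 to 3, against 0.20, 0.30 and 0.19 in floxed controls 1 to 3. The order of these means matched that of the immunoglobulin shares only in part. R274X library 3 had the highest mean and the lowest share of its group (4.45%), but library 2, with the highest share (7.95%), had a higher mean than library 1 (6.85%). Control 2 had the highest mean and the lowest share of the controls (0.293%). Summed B cell markers were 3478, 3379 and 1706 CPM in R274X libraries 1 to 3, against 586, 387 and 922 CPM in floxed controls 1 to 3. These B cell marker sums ran in the reverse order of the profile means over all 6 libraries. All 12 of these markers were higher without overlap, beside 18.9% of all tested genes, and 6 of the 12 passed the test, of which 5 lost their call with at least 1 library left out. Of 10 macrophage markers 6 passed, all of which lost their call with at least 1 library left out. The calls in both lists were rises, beside 10.1% of all tested genes higher. Summed macrophage markers were 2632, 2009 and 1252 CPM in R274X libraries 1 to 3. In floxed controls 1 to 3 the sums were 510, 281 and 574 CPM. Over the 6 libraries the macrophage sums also ran in the reverse order of the profile means. The sums of neutrophil markers (9 genes, 0 passed) overlapped, at 13504 to 35731 CPM in R274X libraries and 17789 to 29972 CPM in floxed controls. The part of these cells in the falls was not tested. When immunoglobulin genes were taken out of the counts and library sizes, the same 7 factors passed in edgeR, with a median log2 fold change of -0.52 over the 10. All other transcripts of B cells and macrophages stayed in that fit, so it cannot show their part in the falls.

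**Figure D4:**
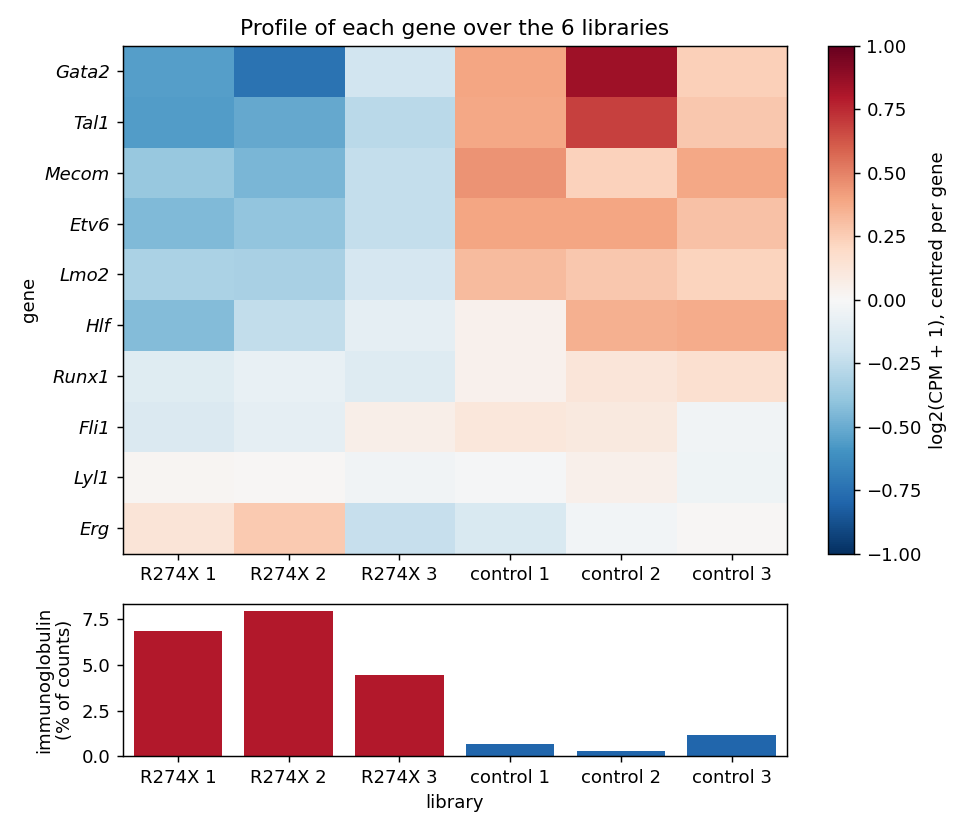
Upper panel: log2(CPM + 1) of each factor in each library, centred on the gene's mean over the 6 libraries (colour), genes ordered by fold change. Lower panel: immunoglobulin share of counts (%), which was 4.45% to 7.95% in R274X libraries and 0.293% to 1.18% in floxed controls.

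Other cell types that use these factors were also read from their markers. For comparison, 7.89% of all tested genes were lower and 10.1% higher at the same threshold. Megakaryocytes, which use Fli1, Tal1 and Runx1, had summed markers (10 genes, of which 8 were tested and 2, Cavin2 and Gp9, fell, both losing their call with at least 1 library left out) of 45.0 to 80.8 CPM in R274X libraries and 78.2 to 136 CPM in floxed controls, with Gp1bb at 0 counts in all libraries. Mast cells and basophils, which use Gata2, had sums of 102 to 208 CPM in R274X libraries and 115 to 177 CPM in floxed controls, and none of 7 tested markers passed. Endothelial markers, where Erg, Fli1 and Tal1 are also active, summed to 116 to 119 CPM in R274X libraries and 157 to 179 CPM in floxed controls. Of 9 tested endothelial markers Tie1 and Emcn fell and Cdh5 rose, the last losing its call with at least 1 library left out, and Cdh5, which defines that cell type, was at 1.60 ± 0.746 CPM in R274X libraries and 0.516 ± 0.170 CPM in floxed controls (SD, n = 3 each). Erythroid markers (10 genes, 3 rose, of which 1 lost its call with at least 1 library left out) summed to 1997 to 3291 CPM in R274X libraries and 1011 to 1356 CPM in floxed controls. Of 11 T and NK cell markers 7 rose and 1 fell, and 4 of these 8 calls were lost with at least 1 library left out. Their sums were 179 to 237 CPM in R274X libraries and 229 to 235 CPM in floxed controls. Nkg7, the marker that fell, made up a large part of these sums. It measured 88.4 ± 13.3 CPM in R274X libraries and 151 ± 12.6 CPM in floxed controls (SD, n = 3 each). Of 7 dendritic cell markers 6 rose, of which 1 lost its call with at least 1 library left out. The dendritic cell sums were 634 to 852 CPM in R274X libraries and 370 to 457 CPM in floxed controls. Plasma cell markers rose in 5 of 7, of which 4 lost their call with at least 1 library left out (2049 to 4651 CPM in R274X libraries and 307 to 878 CPM in floxed controls). How these cells bear on the factors was not tested.

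Most partner proteins of the heptad did not pass. Of 21 listed, 20 were tested: 4 fell, 2 rose and 14 did not pass, with a median log2 fold change of -0.06. In the same test 7.89% of all genes fell and 10.1% rose, so the rises were near the share over all genes and the falls above it. Cbfa2t3, the corepressor Eto2 of Tal1 complexes, fell 1.84-fold (36.6 ± 4.11 CPM in R274X libraries and 67.3 ± 3.63 CPM in floxed controls, SD, n = 3 each, edgeR adjusted p = 0.000156). Ssbp2, which stabilises Ldb1, fell 1.29-fold, and the coactivator Ep300 and the corepressor Rcor1 fell 1.40- and 1.25-fold. Ldb1 itself did not pass (log2 fold change -0.14). The E protein genes Tcf3 and Tcf4, which encode the dimer partners of Tal1 and Lyl1, rose 1.73- and 1.21-fold, and Tcf12 did not pass (0.24). Tcf3, which is also used by B cells, had 387, 424 and 289 CPM in R274X libraries 1 to 3, against 210, 213 and 211 CPM in floxed controls 1 to 3, without overlap. The calls of Tcf4 and Rcor1 were lost with at least 1 library left out (edgeR adjusted p up to 0.191 and 0.0737). Runx1t1 was below the filter.

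Most relatives of the 10 factors did not pass either. Of 24 listed, 22 were tested: 5 fell, 4 rose and 13 did not pass, with a median of -0.17. The shares over all tested genes were 7.89% lower and 10.1% higher, both below those of the relatives. Prdm16 (2.33-fold), Gata3 (1.86-fold), Runx3, Runx2 and Tef fell. Ets1, an ETS factor of lymphocytes that lies next to Fli1 on chromosome 9, rose 1.90-fold (86.4 ± 14.5 CPM in R274X libraries and 45.4 ± 3.35 CPM in floxed controls, edgeR adjusted p = 0.000621). Spib, an ETS factor of B and plasmacytoid dendritic cells, rose 4.06-fold, and Etv5 and Elk4 rose 1.53- and 1.27-fold. Spib reached 44.8, 51.5 and 26.6 CPM in R274X libraries 1 to 3, against 8.95, 7.13 and 14.2 CPM in floxed controls 1 to 3. Spi1 (PU.1), the myeloid ETS factor, did not pass (-0.18). The count called fell to 4 without R274X library 1 or floxed control 1 and to 3 without R274X library 2 or floxed control 2. Of the relatives called, only Prdm16 and Ets1 passed with any library left out. Tal2 and Etv4 were below the filter.

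Most of the other stem and progenitor cell factors listed were lower too. Of 18 listed and tested, 11 fell, 1 rose and 6 did not pass, with a median of -0.45, beside 7.89% of all genes lower and 10.1% higher. Nkx2-3, a homeobox factor, fell 1.97-fold (23.8 ± 0.408 CPM in R274X libraries and 46.8 ± 3.02 CPM in floxed controls, SD, n = 3 each, edgeR adjusted p = 5.83e-05). Hoxa10 fell 1.78-fold, Mycn 1.66-fold, Meis1 1.54-fold and Foxo3 1.43-fold. Sox4, Hoxa5, Hhex, Hoxa9 and Gfi1 were also among those that fell. Foxo1, a forkhead factor that early B cells need, rose 2.04-fold, with 34.3, 34.3 and 20.3 CPM in R274X libraries 1 to 3 and 12.5, 12.8 and 18.2 CPM in floxed controls 1 to 3. The calls of Foxo1, Hoxa9 and Gfi1 were lost with at least 1 library left out (edgeR adjusted p up to 0.124, 0.0791 and 0.126). Myb, which drives progenitor growth, and Bmi1, a Polycomb protein of stem cells, did not pass (-0.23 and -0.08).

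Genes known as targets of these factors included more that fell than rose. Of 25 tested, 9 fell, 2 rose and 14 did not pass, with a median of -0.53, beside 7.89% of all genes lower and 10.1% higher. Of the 25, 6 are in another of these lists and 12 are also in a list of cell type markers. Tie1, a receptor of endothelium and stem cells, fell by 2.47 times. Angpt1, a cytokine made by stem cells, fell 1.73-fold (91.3 ± 5.47 CPM in R274X libraries and 158 ± 10.6 CPM in floxed controls, SD, n = 3 each, edgeR adjusted p = 8.3e-05). Kit, a target of Gata2 and Tal1, fell 1.64-fold, and Cbfa2t3 is among the partner proteins given above. Endoglin (Eng), Hhex and Gp9 were also among those that fell. Csf1r, a Runx1 target of monocytes and macrophages, rose 1.73-fold, beside the macrophage markers given above, and Cdh5 rose 3.07-fold at the low levels given above. The megakaryocyte genes Itga2b and Vwf had log2 fold changes of -1.11 and -0.84 without passing (edgeR adjusted p = 0.123 and 0.0696). The calls of Gp9, Eng, Csf1r and Cdh5 were among those lost with at least 1 library left out, that of Gp9 with any of them. The count called was 7 without R274X library 2 and 6 without floxed control 2.

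**Figure D5:**
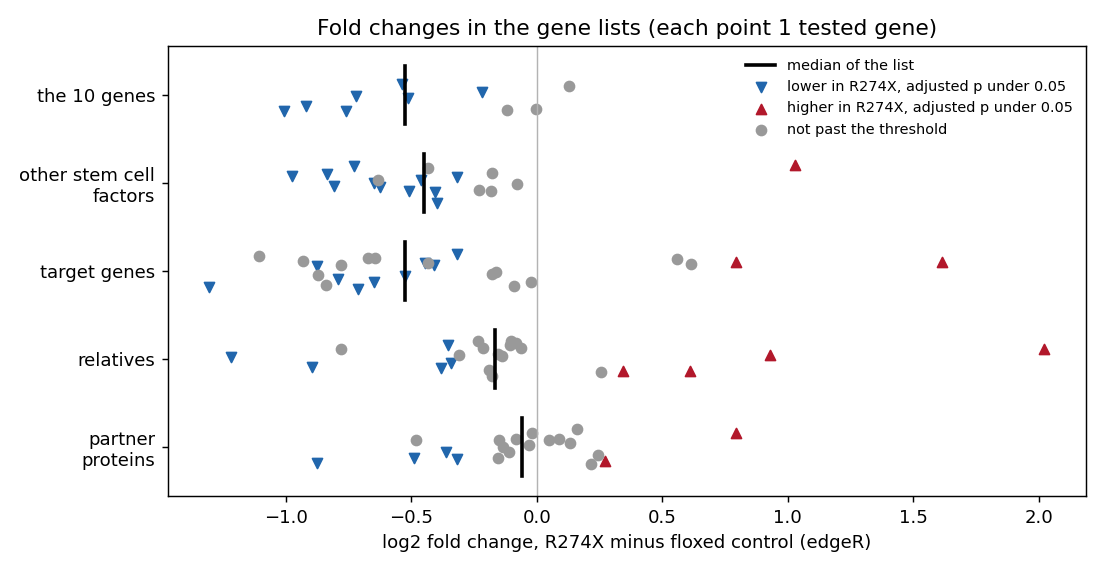
Log2 fold change of each tested gene, R274X minus floxed control, in the 10 factors and 4 gene lists, marked by direction where the edgeR adjusted p is under 0.05; the black bar is the list's median. Medians are -0.53 for the 10 factors and for target genes, -0.45 for other stem cell factors, -0.17 for relatives and -0.06 for partner proteins.

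Other genes were ranked by how like their profile over the 6 libraries was to the mean profile of the 10. Predicted, RIKEN and unnamed genes and those with a mean under 5 CPM were passed over. The most alike of the rest were Scarf1, a scavenger receptor, Psd4, Mc5r, a melanocortin receptor, Nfix, a nuclear factor I protein of stem cells, and Ulk1, an autophagy kinase. Their Pearson r to that profile was 0.997 or 0.998 over 6 libraries, which include the group difference. Scarf1 and Mc5r had log2 fold changes of -1.06 and -1.10, and Nfix, Ulk1 and Psd4 of -0.53, -0.73 and -0.39. Nfix lies across Lyl1 on the opposite strand, and their exons share 4 bases, 0.222% of the exon length of Lyl1, while the counts of Nfix came to 13.7% of those of Lyl1. The sources used here do not say whether counting used strand. The other genes that overlap one of the 10 factors held at most 1.60% of that factor's counts.

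Most genes beside the 10 factors did not pass. The nearest tested protein-coding genes on either side of the 10 factors were 20 genes. Of these 4 fell, 2 rose and 14 did not pass, with a median log2 fold change of -0.04. Over all tested genes 7.89% fell and 10.1% rose, so the rises were near the share over all genes and the falls above it. Pdzk1ip1, 17.0 kb from Tal1, fell with it (21.8 ± 2.70 CPM in R274X libraries and 31.7 ± 2.14 CPM in floxed controls, SD, n = 3 each, edgeR adjusted p = 0.00668), while Stil on the other side did not pass. Rpn1, next to Gata2, rose (log2 fold change 0.44). Ets1, 93.4 kb from Fli1, rose, and Arhgap32, on its other side, fell (-0.74). When tested genes were cut into 10 equal classes of exon length, the longest class, which holds Runx1 and Mecom, had a median log2 fold change of -0.13, and the class with Lyl1 0.11. The log2 fold change of Mecom differed by -0.63 from the median of this class, and that of Runx1 by -0.09 from the same median.

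Over all genes, 2621 of 14608 differed (17.9%), 1469 higher and 1152 lower in R274X libraries. With upper-quartile scaling 1215 were higher and 1430 lower, and with quantile-normalized FPKM 683 were higher and 1135 lower. The count was 1218, 1340, 1462 and 1242 without R274X library 1, R274X library 2, floxed control 1 and floxed control 2. In each of these 4 fits 5 of the 10 factors were lower.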

How the data were processed

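RNA-seq values were analysed for 3 R274X and 3 floxed control libraries. The authors deposited raw read counts and FPKM per Ensembl gene, per the file headers. The submitters' processing notes name Bowtie and mm8, and the sources used here do not state the counting tool or its strand setting. Among genes above 200 counts, 94.4% to 94.6% had an FPKM-implied length equal (tolerance 0.01%) to the merged exons of GENCODE M21 (GRCm38), from which positions and symbols were taken (54409 of 54532 IDs; the other 123 held at most 0.0475% of counts), and FPKM had been scaled between libraries. Counts were tested with edgeR 4.0.16 in R 4.3.3: TMM scaling, filterByExpr (minimum count 10), robust quasi-likelihood fit, Benjamini-Hochberg adjustment over 14608 genes, threshold 0.05. SE is the absolute log2 fold change divided by the square root of F. FPKM was used for levels and ratios, with exact permutation tests (SciPy 1.17.1), and in limma 3.58.1 fits of log2(FPKM + 1) as alternatives; DESeq2 1.42.0, limma-voom, other scalings and filters, removal of immunoglobulin genes and leaving out each library were the others. Quantile normalization of FPKM was added after seeing the data. edgeR was tested on simulated data. No pair of replicates agreed within counting noise. The members and lists were chosen with earlier results of these data known. Named are the 10 genes, Phf6, the 8 pairs, genes of the lists past the threshold, with values for up to 5 per direction, gate genes, and the 5 genes most like the mean profile with a mean of at least 5 CPM; genes of the lists that did not pass, single markers of other cell types and neighbouring genes were named after their values were seen. Precision is limited by 3 libraries per group. Predicted, RIKEN and unnamed genes were passed over in the ranking by likeness to the mean profile. Some genes of the lists are counted but not reported by name here.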

Additional observations from a re-analysis of the deposited data

How the results depend on the processing

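Tal1, Lmo2 and Etv6 passed the threshold under all 18 alternatives, Mecom under 17, Gata2 and Hlf under 14 each and Runx1 under 5. The 7 genes that fell kept a negative log2 fold change under all 18. With limma on log2(FPKM + 1) without a filter, 3 of the 10 factors, 2 partner proteins, 1 relative, 2 other stem cell factors, 3 target genes and 611 genes in all passed; here Mecom had -0.41 with an adjusted p of 0.0757, against the same -0.41 and 0.0341 with the filter. With the filter 1581 genes passed at a pseudocount of 1 and 1548 at 0.1. Hlf missed the threshold in these 3 fits (adjusted p 0.0555, 0.0553 and 0.1004 without the filter). Without the count filter in edgeR 17 target genes passed. Leaving out 1 library gave 1218 to 3295 genes, 5 to 7 of the 10 factors, 4 to 9 partner proteins, 3 to 9 relatives, 9 to 12 other stem cell factors and 6 to 13 target genes. Of the 8 ratios, 3 did not overlap in the full data, and 3 to 6 with 1 library left out. There were 5 without floxed control 1 and 6 without R274X library 3. Leaving out a library cannot make separate groups overlap, so this count could not go below 3 and does not test the separation. The cause of the other shifts was not tested. The median log2 fold change of all genes was furthest from 0 with quantile normalization of FPKM, at -0.07. No paired analysis was possible because the groups share no replicate numbers in the labels: the library numbers 1 to 3 used here follow accession order and only name the libraries. Depth limits Mecom most, with 162 to 396 counts a library.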
